A study of Mus musculus with 18 samples.

Results

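The 8 genes described here encode 3 families of cell-surface proteins that join axons to their targets: the LAR receptor phosphatases *Ptprs*, *Ptprd* and *Ptprf*, the neurexins *Nrxn2* and *Nrxn3*, and the neuroligins *Nlgn1*, *Nlgn2* and *Nlgn3*. They were chosen by symbol from the 23038 gene symbols of the count table, together with all of their rows in the table of NOVA2-dependent alternative splicing events, which gave 28 of 1991 events. RNA was sequenced from cortex at embryonic day 18.5 (E18.5) in 4 groups of 3 mice: *Nova2-/-*, wild-type from the *Nova2* litters, *Nova1-/-*, and wild-type from the *Nova1* litters. For splicing, the deposited values also compare midbrain and hindbrain of *Nova1-/-* and wild-type mice of the same age. NOVA1 and NOVA2 are neuronal RNA-binding proteins that bind clusters of the 4-base motif YCAY (Y is C or U) and control the inclusion of nearby exons. Both knockouts are constitutive, and the *Nova2* allele carries an IRES-Cre cassette in its first coding exon, ahead of the start codon, with the selection cassette removed by FLP. The study also describes the cassette as made to replace this exon, and it found no NOVA2 protein in newborn *Nova2-/-* cortex.

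LAR phosphatases sit mainly on axons and presynaptic terminals. Their extracellular part is built from immunoglobulin domains followed by fibronectin type III repeats, and very short exons, called mini-exons, change the immunoglobulin region and with it the choice of postsynaptic partner. Neurexins are presynaptic and neuroligins are their postsynaptic partners, and inserts encoded by alternative exons on both sides tune how they bind.

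Total counts ranged from 16518172 to 31362018 per mouse. Levels are given as CPM (counts scaled to a fixed library size) after TMM scaling over the 12 cortex samples, and errors are SDs over 3 mice. The targeted genes followed the labels: *Nova1* was at 0.119 ± 0.0889 CPM in *Nova1-/-* and 62.8 ± 18.7 CPM in its wild-type littermates, and *Nova2* was at 18.8 ± 2.42 CPM in *Nova2-/-* and 34.7 ± 5.34 CPM in its wild-type littermates. Wild-type mice of the *Nova2* litters stood apart from those of the *Nova1* litters in meningeal markers, whose values are given beside those of *Ptprf*. None of the 10 markers of cortical projection neurons was at 0 in all 12 cortex samples. In bulk tissue, fewer cells of a type and less RNA per cell cannot be told apart.

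The exons that carry the splicing results are very short, and their sequences are shown first so that the 18-nt exons of *Ptprd* and *Ptprf* can be compared base by base. They are given 5′ to 3′ on the transcribed strand of mm9, with the exon in capitals and 12 intron bases on each side in lower case.
*Ptprd* 9-nt exon (chr4:75785198-75785206, minus strand): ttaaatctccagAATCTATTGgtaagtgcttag
*Ptprd* 18-nt exon (chr4:75784460-75784477, minus strand): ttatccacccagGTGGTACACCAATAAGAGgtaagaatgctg
*Ptprf* 18-nt exon (chr4:117924681-117924698, minus strand): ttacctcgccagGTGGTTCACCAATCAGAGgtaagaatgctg
*Ptprf* 33-nt exon (chr4:117890617-117890649, minus strand): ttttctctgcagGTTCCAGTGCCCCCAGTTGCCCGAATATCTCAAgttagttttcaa
*Nlgn1* 60-nt exon (chr3:25819100-25819159, minus strand): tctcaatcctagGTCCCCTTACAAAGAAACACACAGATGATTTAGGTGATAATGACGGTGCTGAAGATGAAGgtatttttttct
The lengths of all 5 are multiples of 3. Of these, those of *Ptprd*, the 33-nt exon of *Ptprf* and that of *Nlgn1*, lie wholly in annotated coding sequence, and the 18-nt exon of *Ptprf* is not in the GENCODE vM1 annotation, so its position comes from the coordinates in the event's name. Each begins after AG and ends before GT. The 18-nt exons of *Ptprd* and *Ptprf* share 16 of 18 bases and differ at A6T and A14C (*Ptprd* base first, positions counted from 1 at the exon's 5′ end). The first 12 intron bases downstream of both exons are identical, and 8 of the 12 bases upstream are.

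Splicing is given as *Δ*I, the inclusion fraction in wild-type minus that in the knockout, so that a positive value means that an exon was used less in the knockout. This sign was read from the RT-PCR panels of the study. The deposited data hold 1 *Δ*I per event and comparison, with no replicates, so the values below carry no error and were not tested here. The study's rule for an event was an absolute *Δ*I of at least 0.1 with an FDR below 0.1. Its FDR values were not used here. Every one of the 1991 events has an absolute *Δ*I of 0.1 or more in *Nova2-/-* cortex, so a *Nova2-/-* value above that limit is a condition for being listed and not a finding. The 28 events lie in 5 of the 8 genes, with 12 in *Ptprs*, 5 in *Ptprf*, 5 in *Nlgn1*, 4 in *Ptprd* and 2 in *Nrxn3*. *Nrxn2*, *Nlgn2* and *Nlgn3* have no event in the table. The median absolute *Δ*I of the 28 events in *Nova2-/-* cortex was 0.209, beside 0.223 over all 1991. Among genes with an event, *Ptprf* ranked 23 of 539 by its largest absolute *Δ*I, *Ptprd* 90, *Nlgn1* 136, *Nrxn3* 265 and *Ptprs* 291.

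*Ptprf*, which encodes LAR itself, held the largest value of the 8 genes. Its 33-nt exon, in the segment that encodes the cytoplasmic juxtamembrane region, had a *Δ*I of 0.635 in *Nova2-/-* cortex, -0.0260 in *Nova1-/-* cortex and 0.00437 in *Nova1-/-* midbrain and hindbrain. The exon was thus used less in *Nova2-/-*, while both *Nova1-/-* values lay near 0. The 18-nt exon, a mini-exon of the immunoglobulin region, had a *Δ*I of 0.445 in *Nova2-/-* cortex, 0.0275 in *Nova1-/-* cortex and 0.136 in *Nova1-/-* midbrain and hindbrain. This was the largest value of the 28 events in either *Nova1-/-* comparison, and it had the same direction as in *Nova2-/-* cortex. In the opposite direction, a 306-nt coding exon of the fibronectin type III region (chr4:117904091-117904396) had a *Δ*I of -0.455 in *Nova2-/-* cortex, and so was used more in the knockout, with 0.0114 and -0.0178 in the *Nova1-/-* comparisons. A further cassette exon between the 111-nt exon (chr4:117921504-117921614) and the 270-nt exon (chr4:117910344-117910613) had a *Δ*I of -0.429, and its own position is not given in the sources used here. The event that sets the 111-nt exon against this exon had a *Δ*I of 0.160, and which of the pair its sign refers to is likewise not given.

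*Ptprd* has a pair of mini-exons at the same place, between an upstream 189-nt exon (chr4:75786418-75786606) and a downstream 111-nt exon (chr4:75782715-75782825). The matching 189-nt exon of *Ptprf* (chr4:117930094-117930282) shares 74.1% of its bases with that of *Ptprd*, and the 111-nt exons share 76.6%. Used without its neighbour, the 18-nt exon of *Ptprd* had a *Δ*I of 0.432 in *Nova2-/-* cortex, close to the 0.445 of the *Ptprf* mini-exon of the same length. The 9-nt exon used alone had a *Δ*I of 0.137, and the pair used together one of 0.249. All 3 forms with an insert were thus used less in *Nova2-/-* relative to skipping of both. Among transcripts that held the 18-nt exon, the 9-nt exon had a *Δ*I of -0.448, so that its share among them was higher in the knockout. In the *Nova1-/-* comparisons all 4 values of *Ptprd* were small and negative, from -0.0764 to -0.0186 in cortex and from -0.0721 to -0.0300 in midbrain and hindbrain. These 4 events share splice junctions and are not independent.

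**Figure D1:**
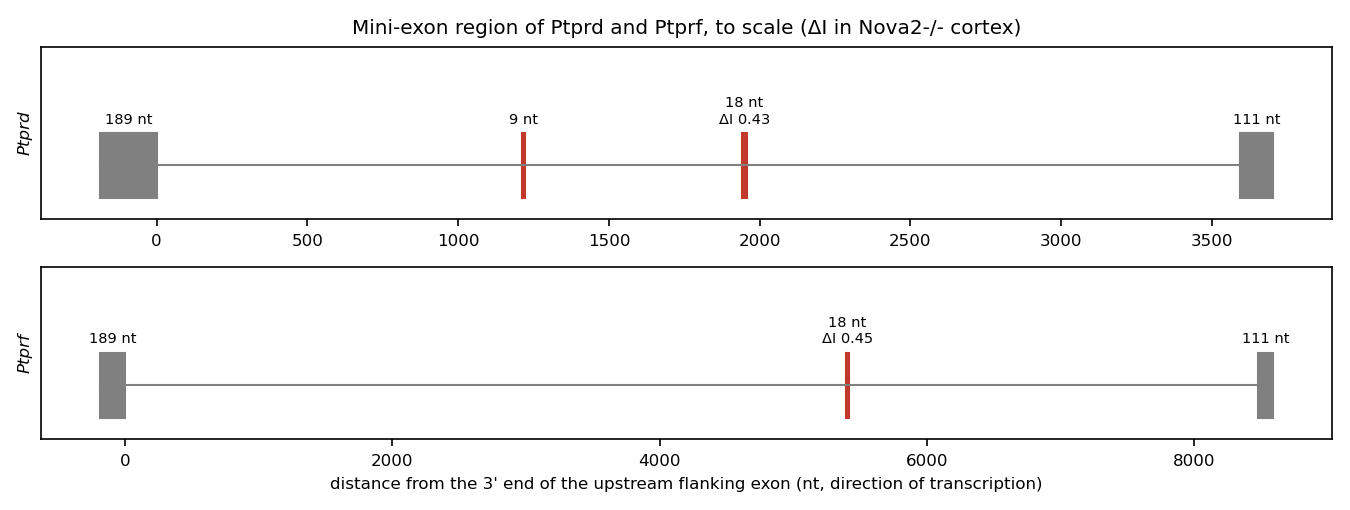
Mini-exon region of *Ptprd* (top) and *Ptprf* (bottom), drawn to scale with distance in nt from the 3′ end of the 189-nt exon on the x axis; boxes are exons, red boxes the alternative mini-exons, and the labels give exon length and, for the 18-nt exons, *Δ*I in *Nova2-/-* cortex. The 18-nt exon starts 1941 nt past the 189-nt exon in *Ptprd* and 5396 nt past it in *Ptprf*, with *Δ*I of 0.432 and 0.445.

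The intron just downstream of these 18-nt exons is shown because YCAY motifs there can be counted directly. The 200 bases that follow each exon are given with every YCAY match, which in DNA letters is CA with C or T on each side, in capitals. Only the transcribed strand was searched, and overlapping matches were counted separately.
*Ptprd*, downstream of the 18-nt exon (chr4:75784260-75784459, minus strand): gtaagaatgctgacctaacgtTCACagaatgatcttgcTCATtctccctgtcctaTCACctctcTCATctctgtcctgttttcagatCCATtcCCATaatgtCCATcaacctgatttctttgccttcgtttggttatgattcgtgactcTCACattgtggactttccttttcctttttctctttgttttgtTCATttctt
*Ptprf*, downstream of the 18-nt exon (chr4:117924481-117924680, minus strand): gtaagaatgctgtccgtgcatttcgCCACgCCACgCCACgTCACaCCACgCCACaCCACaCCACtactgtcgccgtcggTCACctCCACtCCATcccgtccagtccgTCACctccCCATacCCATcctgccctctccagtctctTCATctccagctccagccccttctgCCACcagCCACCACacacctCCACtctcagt
The *Ptprf* window holds 19 motifs and the *Ptprd* window 9. Over the 299 distinct cassette exons of the table whose position could be read from the event name and the annotation, the downstream window held a median of 4, and 95.7% of windows held at least 1. Windows with at least 19 made up 0.334% of them and windows with at least 9 made up 8.03%. The 299 include the *Ptprf* 18-nt exon, so its own window counts in both shares, and they are not an outside background for it. The 33-nt exon of *Ptprf* is followed by 6 motifs in the same distance, the 9-nt exon of *Ptprd* by 4 and the 60-nt exon of *Nlgn1* by 3, which are counts reached by 27.1%, 54.2% and 71.6% of windows. The table was built by the authors from NOVA2-dependent events. Their rule also asked for a YCAY motif inside a mapped NOVA binding cluster, on the exon or the introns beside it. Motifs near the exon were thus a condition for being listed, for all of these exons alike. These counts describe the windows and nothing about binding.

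*Ptprs*, the most abundant of the 3 phosphatase genes, had 12 events, of which 9 share the span chr17:56564303-56574020. This span holds a block of 4 coding exons of the fibronectin type III repeats, of 306 nt (chr17:56568275-56568580), 194 nt (chr17:56567362-56567555), 118 nt (chr17:56565810-56565927) and 600 nt (chr17:56564750-56565349). Together they make 1218 nt, and *Ptprs* transcripts with and without such a block are known as long and short forms. As a unit, the 4 exons had a *Δ*I of -0.220 in *Nova2-/-* cortex, so that the whole block was used more in the knockout. A 59-nt exon, the first part of the 306-nt exon, spliced directly to the 98-nt exon after the block, had a *Δ*I of -0.203. For the other events of the span the exons involved are not given in the sources used here. All 9 events ranged from -0.220 to -0.156. In *Nova1-/-* the same 4-exon event had values of -0.0111 in cortex and -0.000392 in midbrain and hindbrain. The 306-nt exon can also be spliced as a 59-nt and a 115-nt exon with 132 nt between them removed, which leaves 174 nt, again a multiple of 3. The 59-nt exon ahead of the 115-nt exon had a *Δ*I of -0.215 in *Nova2-/-* cortex, 0.0842 in *Nova1-/-* cortex and 0.106 in *Nova1-/-* midbrain and hindbrain. This was the sole event of *Ptprs* past 0.1 in a *Nova1-/-* comparison, and its direction was opposite to that in *Nova2-/-*. Of the remaining events, an alternative acceptor had a *Δ*I of -0.134 and a mutually exclusive pair one of 0.134, and the sources used here do not resolve which form their sign refers to.

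The 306-nt exons of *Ptprf* and *Ptprs* have the same length and share 57.8% of their bases position by position, and both the *Ptprf* exon and the block that holds the *Ptprs* exon had a negative *Δ*I in *Nova2-/-*. The 200 intron bases ahead of the *Ptprs* 306-nt exon are shown, with the motif letters in capitals as above, because they hold more of these motifs than those of the other exons located here.
*Ptprs*, upstream of the 306-nt exon (chr17:56568581-56568780, minus strand): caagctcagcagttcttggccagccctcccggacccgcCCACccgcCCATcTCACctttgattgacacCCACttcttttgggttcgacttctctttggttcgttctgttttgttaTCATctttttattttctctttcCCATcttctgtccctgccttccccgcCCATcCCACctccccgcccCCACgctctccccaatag
This upstream window holds 9 motifs, a count reached by 6.02% of the upstream windows of the same 299 exons, whose median was 4 and of which 97.0% held at least 1. It is also the upstream window of the *Ptprs* 59-nt exon, which is among the 299. The *Ptprf* 306-nt exon has 5 motifs upstream, reached by 33.8% of windows. For the 18-nt exons, which had a positive *Δ*I, the upstream counts were 2 in *Ptprd* and 4 in *Ptprf*.

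*Nlgn1*, the neuroligin of excitatory synapses, had 5 events that all concern a 60-nt exon, printed above, and an unannotated exon ahead of it whose 5′ end lies at position 26031725 of chromosome 3. Spliced directly after the gene's upstream exon, the 60-nt exon had a *Δ*I of 0.229 in *Nova2-/-* cortex, with 0.00691 and 0.000768 in the *Nova1-/-* comparisons. Spliced after the unannotated exon it had a *Δ*I of 0.378 in *Nova2-/-* cortex, -0.0936 in *Nova1-/-* cortex and 0.0497 in *Nova1-/-* midbrain and hindbrain. The 60-nt exon was used less in *Nova2-/-* in both contexts. The unannotated exon, ahead of the 60-nt exon, had a *Δ*I of -0.348, and so was used more in *Nova2-/-*. Of the other events, the mutually exclusive choice between these exons had a *Δ*I of -0.350 and the tandem of both one of 0.105.

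In *Nrxn3*, a presynaptic neurexin, 2 tandem exon events share the span chr12:91522012-91571883 near the 3′ end of the gene. They had *Δ*I of 0.244 and 0.126 in *Nova2-/-* cortex, 0.0421 and 0.0207 in *Nova1-/-* cortex and 0.0614 and 0.0424 in *Nova1-/-* midbrain and hindbrain. All 6 values were positive, and the inner exons could not be located from the sources used here.

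**Figure D2:**
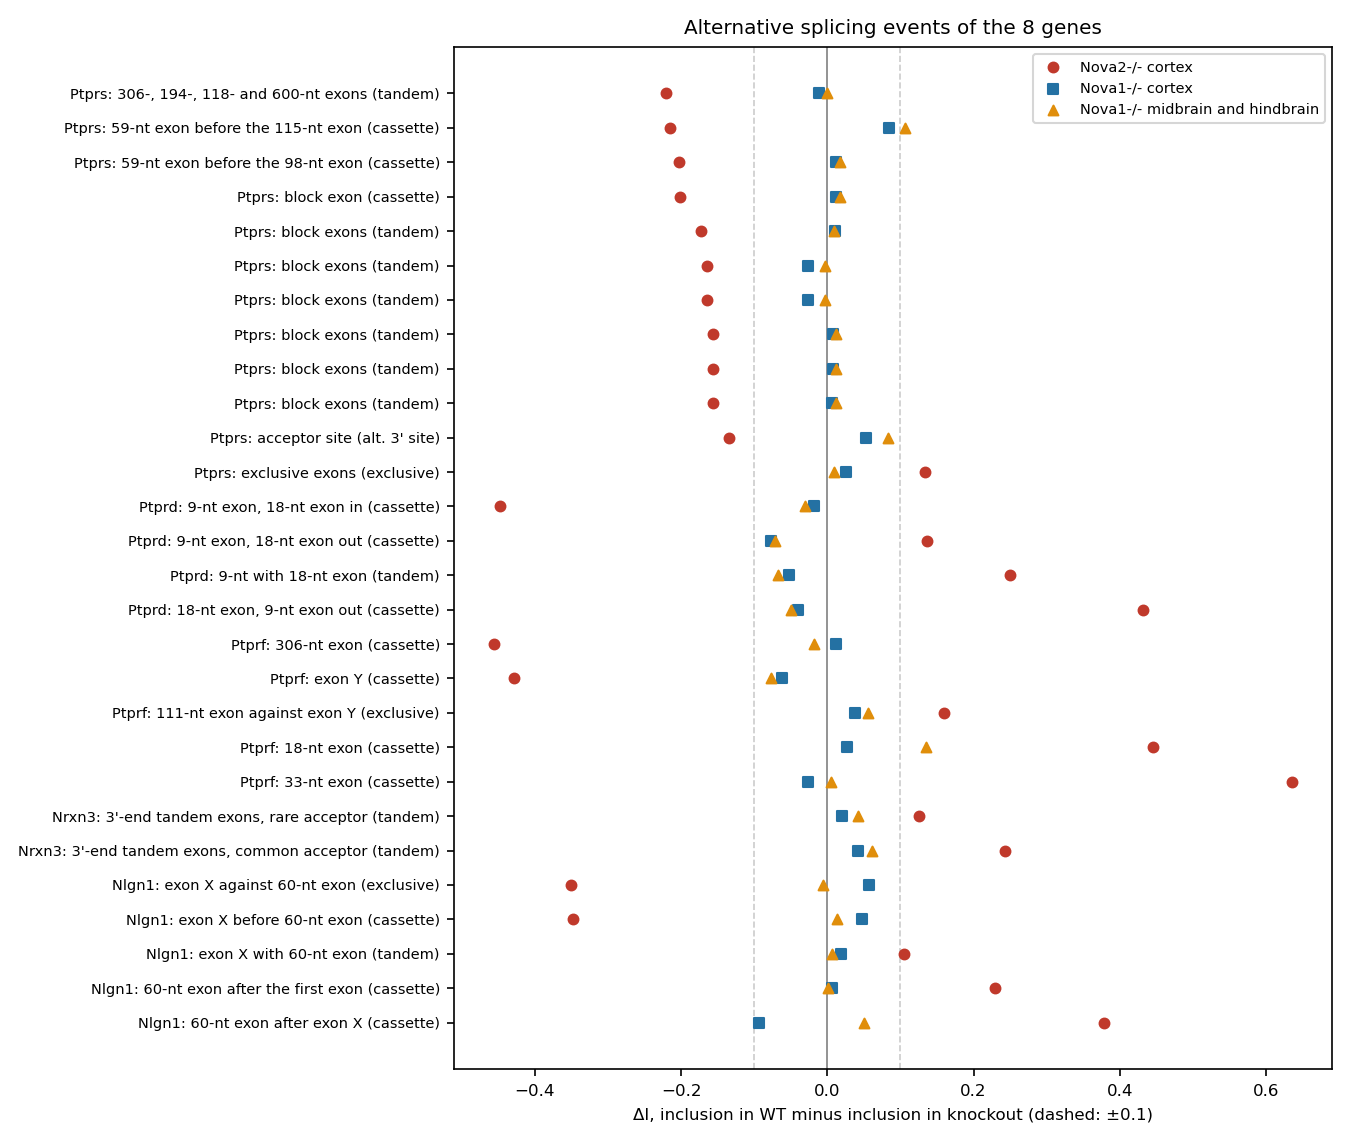
*Δ*I (inclusion in wild-type minus inclusion in knockout, x axis) of the 28 events, 1 row per event with its gene, exon and type; red circles are *Nova2-/-* cortex, blue squares *Nova1-/-* cortex and orange triangles *Nova1-/-* midbrain and hindbrain, and dashed lines mark 0.1 in each direction. The red circles run from -0.455 to 0.635, while the blue squares all lie within 0.0936 of 0.

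The same events were read in the *Nova1-/-* comparisons beside all events of the table. In *Nova1-/-* cortex 0 of 28 events reached an absolute *Δ*I of 0.1, while 221 of 1984 events with a value (11.1%) did so. In *Nova1-/-* midbrain and hindbrain 2 of 28 did, the *Ptprf* 18-nt exon and the *Ptprs* 59-nt exon, beside 317 of 1991 (15.9%). No test was made, since events of 1 gene share junctions. The median absolute *Δ*I was 0.0260 in *Nova1-/-* cortex and 0.0178 in midbrain and hindbrain for the 28 events, beside 0.0341 and 0.0378 over all events. These medians of the 28 events were weighted by the 12 *Ptprs* events, whose own medians were 0.0117 and 0.0121. In cortex the medians of *Ptprd* (0.0461) and *Nlgn1* (0.0478) lay above that of all events, and those of *Ptprf* (0.0275) and *Nrxn3* (0.0314) below it. In midbrain and hindbrain *Ptprd* (0.0585), *Ptprf* (0.0557) and *Nrxn3* (0.0519) lay above it and *Nlgn1* (0.00615) below it. The direction in *Nova1-/-* cortex was that of *Nova2-/-* in 12 of 28 events, and in 44.0% of all events. In *Nova1-/-* midbrain and hindbrain it was that of *Nova2-/-* cortex in 16 of 28 events, and in 58.2% of all events.

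Gene abundance, unlike the deposited splicing values, is given for each of 3 mice per group and could be tested here. Levels were compared between genes as CPM per kb of exon. In the wild-type mice of the *Nova1* litters *Ptprs* was highest at 110 ± 6.55 CPM per kb, followed by *Nlgn1* at 37.5 ± 0.489, *Ptprd* at 31.2 ± 1.45 and *Nrxn3* at 27.2 ± 0.346. *Ptprf* followed at 19.1 ± 1.76 CPM per kb, then *Nlgn2* at 14.96 ± 0.817, *Nrxn2* at 12.7 ± 1.18 and *Nlgn3* at 8.13 ± 0.662. No neighbours in this order overlapped. In the wild-type mice of the *Nova2* litters the upper 4 and *Nlgn3* kept their places, while *Nlgn2* (12.4 ± 0.486), *Ptprf* (11.9 ± 1.09) and *Nrxn2* (10.9 ± 2.61) overlapped and could not be ordered. The annotated gene of *Nlgn3* overlaps *Med12* on the same strand and that of *Nrxn2* overlaps *Slc22a12* on the opposite strand, and whether counting used strand is not given in the sources used here, so reads of these neighbours may be included.

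**Figure D3:**
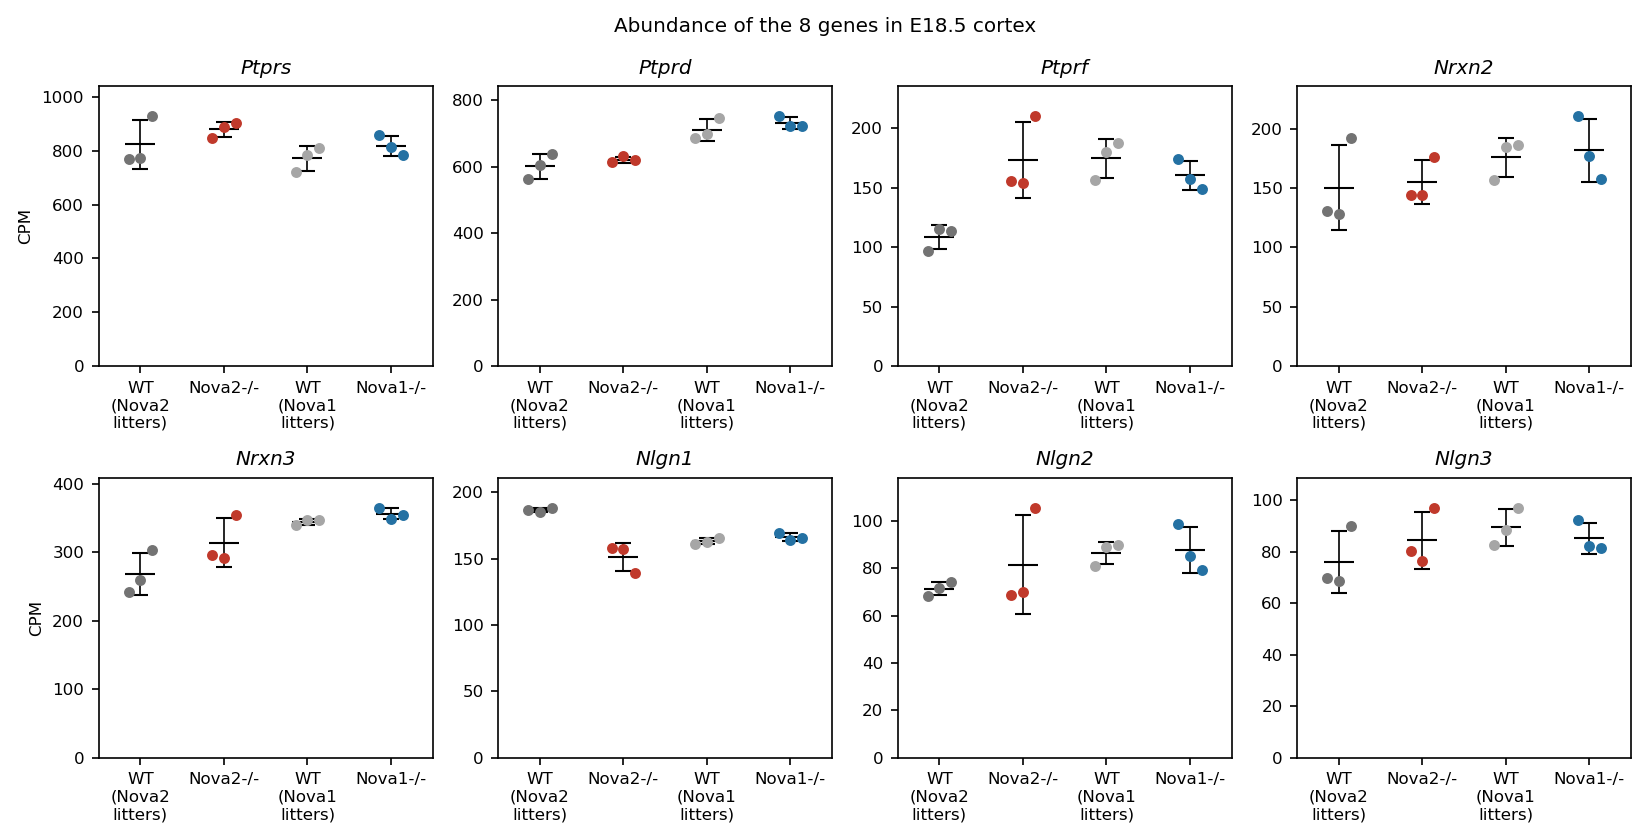
CPM (y axis, from 0) of each of the 8 genes in the 12 cortex samples, with 1 point per mouse and bars for the mean and SD of 3 mice per group. *Ptprf* in wild-type mice of the *Nova2* litters (97.1 to 115 CPM) and *Nlgn1* in the same mice (186 to 189 CPM) lie apart from the other 9 samples of each gene.

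The first comparison asked whether the RNA of these genes changed with loss of NOVA2. In edgeR's quasi-likelihood test 166 of 15691 genes passed an adjusted p of 0.05 in *Nova2-/-* cortex (1.06%), 109 of them higher (0.695%), and 41 also at a log2 fold change of at least 1 (0.261%). All 8 genes were tested and 0 passed, with 2 at an unadjusted p under 0.05, *Ptprf* and *Nlgn1*, beside 19.2% of all genes tested. DESeq2 called the same 2 genes, beside 792 of all genes. For DESeq2 no share of the genes tested is given here, so its counts cannot be set against one. The groups of 3 did not overlap for the same 2 of 8 genes, beside 26.7% of all genes tested. The median log2 fold change was 0.13 over the 8 genes and 0.01 over all genes tested.

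*Ptprf* stood at 97.1, 115 and 113 CPM in the wild-type littermates and at 156, 154 and 210 CPM in *Nova2-/-*. The knockout was higher in 3 of 3 mice, and 1 of its mice was well above the other two. The log2 fold change was 0.69 ± 0.13 (SE), a 1.61-fold difference, with an adjusted p of 0.0567. It passed the threshold in 5 of 13 alternative settings, among them DESeq2 (adjusted p = 4.65e-05) and the fit without wild-type replicate 3 (adjusted p = 0.0181). The wild-type mice of the *Nova1* litters were at 157, 180 and 187 CPM, inside the *Nova2-/-* range.

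The 15 meningeal marker genes were likewise lowest in the wild-type mice of the *Nova2* litters. Their summed level was 244, 318 and 614 CPM in wild-type mice of the *Nova2* litters, 957 to 1136 CPM in *Nova2-/-*, 866 to 1082 CPM in wild-type mice of the *Nova1* litters and 743 to 876 CPM in *Nova1-/-*. None of these markers was at 0 in all 12 cortex samples. Of these markers 5 of 15 (*Bmp5*, *Cldn11*, *Ogn*, *Dcn* and *Col1a1*) rose in *Nova2-/-*, with a median log2 fold change of 1.34 over the list. Wild-type replicate 3 had the highest meningeal sum of its group, and without it the count of genes called rose from 166 to 1433. Of the other cell type lists, *Kdr* of 11 endothelial and mural markers rose (log2 fold change 0.78 ± 0.11). *Sst* of 8 interneuron markers fell by 0.83 ± 0.13 on the log2 scale. Among 10 microglial, 10 progenitor, 8 glial and 10 projection neuron markers 0 were called. Of these lists 3, 2, 0 and 0 markers had an unadjusted p under 0.05, beside 19.2% of all genes tested. DESeq2 called 1, 1, 0 and 0 of them, beside 792 of all genes. The part of meningeal RNA in the *Ptprf* difference was not tested.

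*Nlgn1* stood at 186, 186 and 189 CPM in the wild-type littermates and at 158, 157 and 139 CPM in *Nova2-/-*, so it was lower in 3 of 3 knockout mice with no overlap. The log2 fold change was -0.29 ± 0.07 (SE), with a 95% interval from -0.44 to -0.14 and an adjusted p of 0.0838. It passed with DESeq2 (adjusted p = 0.0144), with all 12 samples in 1 fit (0.00750) and without wild-type replicate 3 (0.0386). Wild-type mice of the *Nova1* litters, at 161, 163 and 166 CPM, were below those of the *Nova2* litters too.

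**Figure D4:**
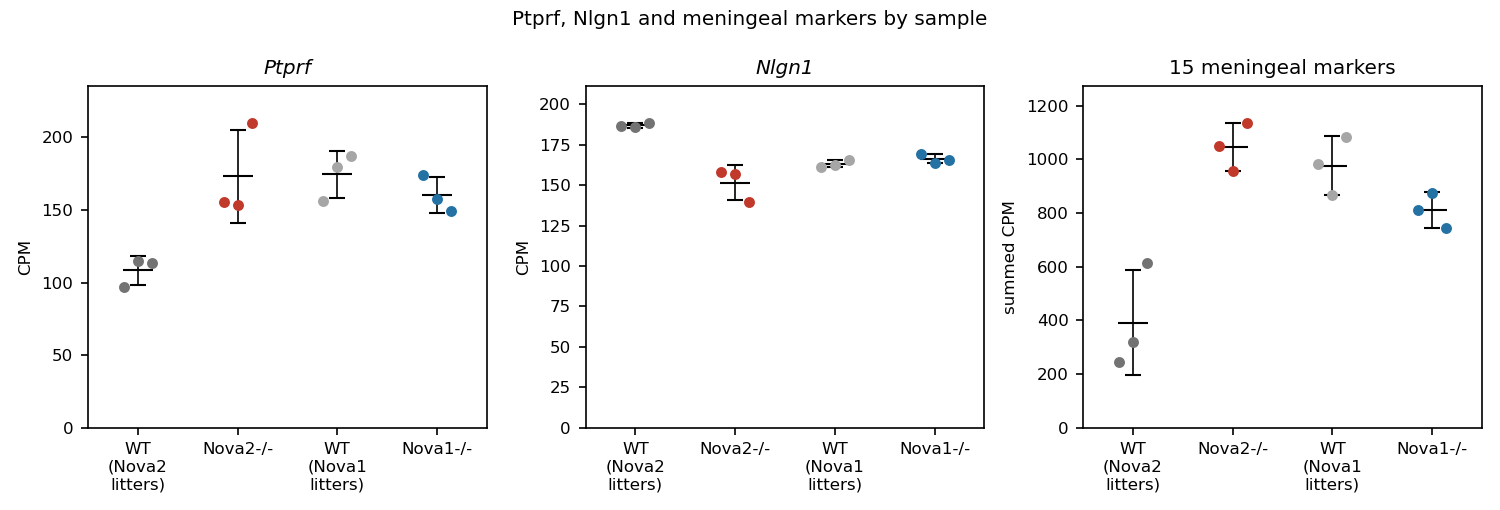
CPM of *Ptprf* (left) and *Nlgn1* (middle) and the summed CPM of 15 meningeal markers (right), all from 0, in the 12 cortex samples, with 1 point per mouse and bars for the mean and SD of 3 mice per group. Wild-type mice of the *Nova2* litters have the lowest *Ptprf* and meningeal values and the highest *Nlgn1* values.

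The other 6 genes had overlapping groups in *Nova2-/-*. *Nrxn3* was at 242, 260 and 302 CPM in wild-type and 296, 291 and 355 CPM in *Nova2-/-* (log2 fold change 0.24 ± 0.11, adjusted p = 0.282). *Nlgn2*, the neuroligin of inhibitory synapses, was at 68.5, 71.8 and 74.1 CPM in wild-type and 68.8, 70.0 and 106 CPM in *Nova2-/-*. Its log2 fold change of 0.20 ± 0.16 came from 1 mouse, and without *Nova2-/-* replicate 3 it was -0.03. *Nlgn3*, *Ptprs*, *Ptprd* and *Nrxn2* had log2 fold changes of 0.16, 0.11, 0.06 and 0.05, with adjusted p from 0.556 to 0.892. The 95% intervals of these 4 reached no higher than 0.47 on the log2 scale. *Nova2-/-* replicate 3 was the highest of its group for *Ptprf*, *Ptprs*, *Nrxn2*, *Nrxn3*, *Nlgn2* and *Nlgn3* and the lowest for *Nlgn1*.

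In *Nova1-/-* cortex 2 of 15901 genes passed the threshold (0.0126%) and 0 of the 8 did. At an unadjusted p under 0.05 there were 0 of the 8, beside 7.44% of all genes tested. DESeq2 called 0 of the 8, beside 33 of all genes. Log2 fold changes ran from -0.12 ± 0.08 (*Ptprf*) to 0.09 ± 0.06 (*Ptprs*), with adjusted p of at least 0.767. The groups of 3 did not overlap for 1 of 8 genes, *Nrxn3*, beside 13.4% of all genes. *Nrxn3* was at 339, 346 and 346 CPM in wild-type and 365, 348 and 354 CPM in *Nova1-/-*, a log2 fold change of 0.05 ± 0.05.

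The difference between both knockouts' changes was tested in 1 fit of the 12 samples, where 296 of 16210 genes passed (1.83%). *Ptprf* was the 1 gene of the 8 that did, with a change in *Nova2-/-* that exceeded its change in *Nova1-/-* by 0.80 ± 0.16 on the log2 scale (adjusted p = 0.0267). For *Nlgn1* the difference was -0.33 ± 0.08 (adjusted p = 0.0530), and the other 6 genes had adjusted p of at least 0.470. The *Ptprf* call was lost without wild-type replicates 5 or 6 or without *Nova1-/-* replicates 2 or 3, with adjusted p from 0.0705 to 0.0791. The meningeal markers moved here as well, with 9 of 15 called higher.

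**Figure D5:**
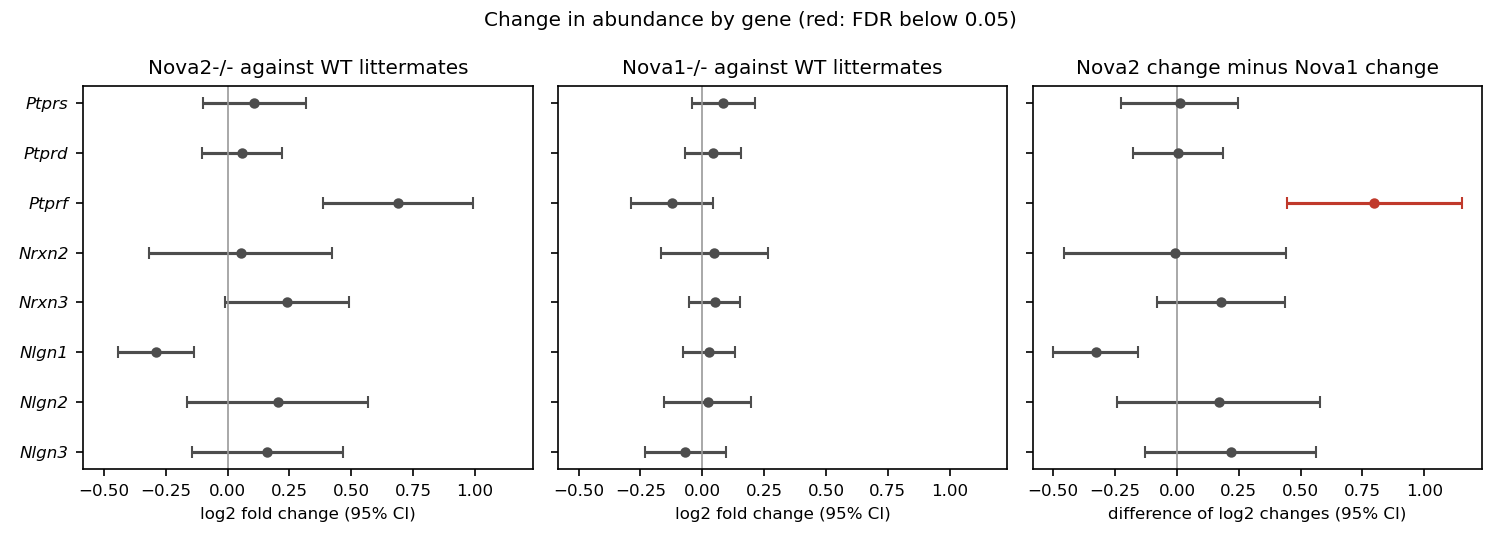
Log2 fold change of each gene with its 95% confidence interval (x axis) in *Nova2-/-* against wild-type littermates (left), *Nova1-/-* against wild-type littermates (middle) and the difference between both changes (right); red marks an adjusted p under 0.05. The 1 red point is *Ptprf* at 0.80 in the right panel.

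Across the 12 cortex samples the genes also varied with one another, which is given as a description because the samples share groups and litters. Log2 CPM of *Ptprf* and *Nlgn1* had Pearson's r of -0.855, and of -0.588 after the group means were removed. *Nrxn2* and *Nlgn3* had an r of 0.895. The gene most like each in its pattern over 12 samples was *Mll1* for *Ptprf* (r = 0.981), *Ino80* for *Ptprd* (0.987), *Fbxo42* for *Ptprs* (0.952), *Xylt1* for *Nrxn2* (0.976) and *Lrp4* for *Nrxn3* (0.982). For the neuroligins it was *Rab12* for *Nlgn1* (0.958), *Igdcc4* for *Nlgn2* (0.947) and *Fat1* for *Nlgn3* (0.987). Each of these was picked as the highest r among the 16210 genes of the 12-sample fit, with group means left in. A high r is thus built into the choice.

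Partner molecules of these families were followed as lists. Among 47 other trans-synaptic organizers, such as the postsynaptic ligands of LAR phosphatases, 0 were called in either knockout or in the difference. At an unadjusted p under 0.05 there were 6 in *Nova2-/-*, 2 in *Nova1-/-* and 3 for the difference, beside 19.2%, 7.44% and 18.2% of all genes tested. DESeq2 called 3 in *Nova2-/-* (*Clstn2*, *Mdga1* and *Nxph3*) and 0 in *Nova1-/-*, beside 792 and 33 of all genes. The median log2 fold change of the 47 organizers in *Nova2-/-* was -0.0040. Among 25 intracellular partners 1 fell in *Nova2-/-*, *Dlg3*, which encodes the scaffold SAP102 that binds neuroligins (log2 fold change -0.63 ± 0.07, adjusted p = 0.00977). Events of the splicing table lay in 3 of the 25 partners, *Cask*, *Dlg3* and *Gphn*, beside 2.19% of all gene symbols. The 8 genes were chosen with the event table known, so their own 5 of 8 cannot be read against that share.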

How the data were processed

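The authors sequenced ribosome-depleted TruSeq libraries as paired-end reads, aligned them to mm10 with OLego and deposited the expected counts per gene symbol for 12 cortex samples. For splicing events the authors deposited, as a score between -1 and 1, *Δ*I with 1 value per comparison and coordinates lifted over to mm9. Columns that hold the log2 fold change and FDR of the study's own comparisons were not used. The counting program, the annotation and the *Δ*I read depth are not given in the sources used here. Abundance was analysed for the 12 cortex samples alone.

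Genotype, region and number in the labels gave the groups, with wild-type mice 1 to 3 taken as littermates of *Nova2-/-* and 4 to 6 of *Nova1-/-*. Counts were rounded and tested over all genes with edgeR 4.0.16 in R 4.3.3 (TMM scaling, filterByExpr, quasi-likelihood test, Benjamini-Hochberg adjustment, threshold 0.05), with the 6 samples of each comparison in a fit and 12 for the difference. The test was checked on simulated counts. Alternatives were other scalings and filters, DESeq2 1.42.0, 1 fit of 12 samples, a fold-change limit, a replicate block and each sample left out. Exons were placed on mm9 from event names, shared junctions and GENCODE vM1, and motifs were counted in 200-nt intron windows with Python 3.11.15. The 8 genes and all lists were chosen with earlier results of these data known. The genes named are those 8, up to 4 genes passing per list and comparison (5 for the meningeal list, the last added after its value was seen), and the gene most like each. *Cask*, *Gphn*, *Clstn2*, *Mdga1*, *Nxph3*, *Med12* and *Slc22a12* fall outside that rule and were chosen after their values were seen.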

Additional observations from a re-analysis of the deposited data

Results flagged for a closer look

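*Ptprf* differed between the knockouts: its log2 change in *Nova2-/-* cortex minus that in *Nova1-/-* cortex was 0.80 ± 0.16 (SE), with a 95% interval from 0.45 to 1.15 and an adjusted p of 0.0267 in edgeR's quasi-likelihood test of the difference. It was higher than wild-type littermates in 3 of 3 *Nova2-/-* mice, and the *Nova1-/-* group overlapped its wild-type littermates. The levels of both knockouts overlapped each other, at 154 to 210 CPM in *Nova2-/-* and 149 to 174 CPM in *Nova1-/-*, while wild-type mice of the *Nova2* litters were lowest, at 97.1 to 115 CPM, beside 157 to 187 CPM in those of the *Nova1* litters. In the same test 9 of 15 meningeal markers were called higher, and their part in the *Ptprf* difference was not tested. The difference stayed positive in all 14 alternative fits, from 0.65 to 0.89, and passed the threshold in 10 of them.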

How the results depend on the processing

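In *Nova2-/-* cortex, with 166 genes and 0 of the 8 called, DESeq2 called 792 genes and 2 of the 8 (*Ptprf* and *Nlgn1*), the fit of all 12 samples called 1334 and 2, the added fold-change limit left 41, no filter on low counts called 1 of the 8 and the replicate block called 1 (*Ptprf*, adjusted p = 0.0328). Deviations of same-numbered mice had correlations from 0.00658 to 0.168, above 0.1 in 2 of 3 pairs. Those of differently numbered mice ran from -0.202 to 0.121. With 3 mice per group this check cannot decide whether same-numbered mice share a litter, and the main fit did not pair them. With each sample left out, 7 to 1433 genes and 0 to 2 of the 8 were called, the highest count without wild-type replicate 3. In *Nova1-/-* cortex, with 2 genes called, 10 counts in every sample gave 1, DESeq2 33 and leaving out each sample 1 to 10. For the difference, leaving out each sample gave 113 to 1005 genes and 0 to 2 of the 8. At an absolute *Δ*I of 0.05, 7 of the 28 events were counted in *Nova1-/-* cortex and 9 in midbrain and hindbrain, beside 34.2% and 41.4% of all events, and at 0.2 the count was 0 in midbrain and hindbrain, beside 2.16%. Signs changed in these cases: with upper-quartile factors the difference for *Nrxn2* was 0.0103, and with each sample left out the *Nova2-/-* values ran from -0.0533 to 0.274 for *Nrxn2* and from -0.0321 to 0.311 for *Nlgn2*, the *Nova1-/-* values from -0.0702 to 0.143 for *Nrxn2* and from -0.0683 to 0.0914 for *Nlgn2*, and the differences from -0.0983 to 0.223 for *Nrxn2*, from -0.0444 to 0.286 for *Nlgn2*, from -0.0330 to 0.119 for *Ptprs* and from -0.0380 to 0.0593 for *Ptprd*. *Ptprf* stayed higher and *Nlgn1* lower in *Nova2-/-* in all 13 alternative fits, from 0.52 to 0.76 and from -0.33 to -0.24, with adjusted p from 4.65e-05 to 0.174 and from 0.00750 to 0.258. The causes were not tested. With 3 mice per group, the intervals of the 6 other genes allow changes of up to 0.57 on the log2 scale in *Nova2-/-*.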

Other observations

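The make-up of each family, as each gene's share of the family's summed CPM per kb, is given as a further description. These shares rest on the annotated exon lengths. In plain CPM the share of *Ptprs* in its family ran from 46.1% to 55.3% over the 12 cortex samples. *Ptprs* made up 75.3% ± 1.44 of the LAR phosphatase sum in the *Nova2* litters' wild-type mice and 73.0% ± 1.04 in *Nova2-/-*, and 68.5% ± 0.283 and 70.0% ± 0.189 in the *Nova1* litters' wild-type mice and *Nova1-/-* (SD, n = 3). *Ptprf* made up 7.68% ± 0.675 of the sum in wild-type mice of the *Nova2* litters, 11.1% ± 1.63 in *Nova2-/-*, 11.9% ± 0.414 in wild-type mice of the *Nova1* litters and 10.6% ± 0.359 in *Nova1-/-*. *Nlgn1* made up 69.0% ± 1.48 of the neuroligin sum in wild-type mice of the *Nova2* litters, 61.7% ± 6.53 in *Nova2-/-*, 61.9% ± 1.20 in wild-type mice of the *Nova1* litters and 62.5% ± 1.93 in *Nova1-/-*. For both *Ptprf* and *Nlgn1* the wild-type mice of the *Nova2* litters were thus the group that stood apart. *Nrxn3* held 66.4% to 68.9% of the sum of *Nrxn2* and *Nrxn3* in all 4 groups. These shares were not tested.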
